A study of Homo sapiens with 6 samples.

Results

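The genes described here are ligands of the bone morphogenetic protein (BMP), growth differentiation factor (GDF) and activin family, with genes that respond to them. They are the 10 rows of the count tables named GDF5, GDF11, GDF15, BMP2, BMP4, INHBA, ID1, ID2, ID3 and SMAD7, out of 26485 gene symbols in the series. The set was chosen by name with the measured result of this very contrast known, since GDF5 had been selected on its lower counts with sgRNA #2. For that reason the values of the 10 genes between the groups are given as a description, with fold changes and intervals but without p-values.

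RNA-seq was done on A549, a human lung adenocarcinoma cell line, in 6 libraries of about equal depth. All cells of both groups carried dCas9-KRAB, which is nuclease-dead Cas9 joined to a repressor domain, delivered by lentivirus and selected with puromycin. They also all carried rat Nkx2-1, a transcription factor of lung epithelium, delivered by a second lentivirus and enriched by sorting for GFP. The cells then received either sgRNA #2, which directs dCas9-KRAB to the first intron of SFTPB (surfactant protein B), in 3 libraries, or a non-targeted sgRNA control, in 3 libraries, described by the study as biologically independent. The comparison asks what else changes when this site is targeted.

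Ligands of this family bind pairs of type I and type II receptor kinases, which phosphorylate SMAD proteins that move to the nucleus. BMPs and most GDFs of the BMP branch act through SMAD1, SMAD5 and SMAD9, whereas activins, TGF-beta and GDF11 act through SMAD2 and SMAD3. The ID genes are early targets of the BMP branch and encode inhibitors of basic helix-loop-helix factors, and SMAD7 encodes a feedback inhibitor of both branches. In the lung, BMP4 is known for its role at the growing tips of the airways.

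Counts assigned to genes ranged from 6047554 to 7584611 per library, so that 3 counts, taken as the floor of detection, were worth 0.394 to 0.499 CPM (counts scaled to the size of the library by the TMM method of edgeR). SFTPB, the targeted gene, fell from 416 ± 9.90 to 6.71 ± 1.28 CPM (mean ± SD, n = 3 in each group), a log2 fold change of -5.96. Of the 6 epithelial markers examined KRT19 had 0 to 4 counts, at or near the floor, and the summed level of the 6 was 3579 to 4543 CPM in control libraries and 3378 to 4156 CPM in sgRNA #2 libraries. Of 9 markers of other cell types, 4 (PTPRC, CD3E, CDH5 and DCN) had no count in any library and the sum of all 9 was at most 4.53 CPM in a control library and 4.50 CPM in an sgRNA #2 library. These are bulk samples, in which fewer cells making a transcript and less transcript per cell cannot be told apart.

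The sequence targeted by sgRNA #2 is shown with the sites most like it near GDF5 and ID3, because GDF5 had by far the lowest fold change of the set and ID3 had the longest match. All were read from the hg38 genome, the build that the submitters' processing notes name. Capitals mark the protospacer adjacent motif (PAM) in the first sequence, and in the other 2 the bases that match the guide without interruption up to the PAM.
sgRNA #2 target, chr2:85668529-85668551, minus strand: gggatgggaggggaacacccAGG
GDF5 site, chr20:35439113-35439135, minus strand: ggtggtggtggggtACACCCtgg
ID3 site, chr1:23559090-23559112, minus strand: cgggacagggctGAACACCCagg

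The target occurred once in the genome with its PAM. Within 1000 bp of an annotated transcript start of GDF5, the longest uninterrupted match before an NGG was 6 bases, at -896 bp from a start (minus is upstream), with 6 mismatches over the 20 guide bases. Of 13076 tested genes searched in the same way, 24% had an uninterrupted match at least as long, whatever the mismatches in the rest of the guide. No share was worked out for the number of mismatches. ID3 had a run of 8 bases at -26 bp from a start, with 8 mismatches of 20, a length reached by 1.51% of the genes searched (197 genes). A match of letters does not show binding, which was not measured here. The run was 4 or 5 bases in the other genes except BMP2, which had none of at least 4 bases.

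The promoters of GDF5 and SMAD7 are shown because these were the 2 genes whose values in sgRNA #2 libraries all lay below those in control libraries. Among all tested genes 8.83% had groups apart in that direction. Each is the 250 bases before a start in RefSeq (GRCh38.p14), the 1 entry of GDF5 and the first of 3 entries of SMAD7, written 5′ to 3′ on the strand of the gene, with CAGAC in capitals, the letters that SMAD3 and SMAD4 are known to recognise.
GDF5, chr20:35454750-35454999, minus strand: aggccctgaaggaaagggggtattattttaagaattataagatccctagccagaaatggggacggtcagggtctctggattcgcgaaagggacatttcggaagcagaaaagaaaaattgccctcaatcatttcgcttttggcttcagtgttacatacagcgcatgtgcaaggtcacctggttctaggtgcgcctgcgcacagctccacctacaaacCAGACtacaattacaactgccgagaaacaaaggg
SMAD7, chr18:48950966-48951215, minus strand: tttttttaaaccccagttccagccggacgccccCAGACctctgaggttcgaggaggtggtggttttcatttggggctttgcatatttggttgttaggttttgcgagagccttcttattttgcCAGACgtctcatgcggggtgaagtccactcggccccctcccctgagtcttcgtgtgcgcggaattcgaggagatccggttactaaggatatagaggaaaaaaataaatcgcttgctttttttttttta

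Searched on both strands, CAGAC occurred once in the GDF5 window and 2 times in the SMAD7 window shown, beside 1 and 0 times in the other entries of SMAD7, and 38% of 35116 promoters of this length held it. GGCGCC, the GC-rich letters bound by SMAD1 and SMAD5, was in neither, and 16.4% of promoters held it. The palindrome GTCTAGAC, which contains no CAGAC but shares part of its letters on each strand, was in neither window and in 0.182% of promoters. Of the other genes, BMP4 had GGCGCC once in 1 of its 3 entries and CAGAC once in 2 of them, GDF15 and ID3 had CAGAC once each, and the windows of ID1, ID2, GDF11 and INHBA held neither GGCGCC nor CAGAC. BMP2 was not matched.

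GDF5, a ligand of the BMP branch known for its part in joint and cartilage formation, was the 1 gene of the 10 that passed both cut-offs of the study, an adjusted p under 0.05 and a log2 fold change of at least 1 in size. Among all 13356 genes tested, 0.689% passed both in the lower direction and 0.0299% in the higher direction. Its counts were 11, 15 and 16 in control libraries 1, 2 and 3, and 1 in each of the 3 sgRNA #2 libraries. The groups were thus far apart, but the values with sgRNA #2 lay under the floor of 3 counts per library.

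In CPM, GDF5 was at 1.75, 2.12 and 2.10 in control libraries and at 0.142, 0.150 and 0.166 in sgRNA #2 libraries. The means were 1.99 ± 0.209 and 0.153 ± 0.0124 CPM (SD, n = 3 each), and the fitted log2 fold change was -3.57 (SE 0.536, 95% interval -4.70 to -2.44). That fitted value depends on the prior count used for so few reads. Summed over libraries, 42 counts stood against 3, which left 7.60% of the control level with an exact interval of 1.51% to 23.8%, or a fold of 13.2 (4.21 to 66.4). These intervals cover counting error alone.

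GDF5 entered the test because of its control libraries alone, the 3 in which it reached 10 counts, so a large difference was a condition of its being tested when the other group was near 0. It was not tested when 10 counts were required in every library. With any 1 library left out and the tested genes held as they were, the log2 fold change lay between -3.64 and -3.51, which is no support for the call, since the gene was selected on these counts. DESeq2's test against a 2-fold change, in which the log2 fold change was -3.71, did not call it.

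GDF5 lies at chr20:35433347-35454746 on the minus strand (ENSG00000125965.9, GENCODE 44 on GRCh38), with 2 transcripts and 2631 bp of exons. Its 3′ part overlaps the antisense gene GDF5-AS1 (chr20:35433029-35435450), which was not among the gene symbols counted. It also contains MIR1289-1, which had 1 count in 1 control library and none elsewhere. The strand setting of the counting is not given in the sources used here, so reads of GDF5 and of its antisense partner cannot be told apart. The neighbouring genes were measured much more deeply. UQCC1 (chr20:35302566-35412031, minus strand), an assembly factor of mitochondrial complex III with a start within 50 kb of GDF5, had 514, 563 and 563 counts in control libraries and 515, 549 and 458 with sgRNA #2, a log2 fold change of -0.02 (SE 0.0755, edgeR adjusted p = 0.952). CEP250 (chr20:35455164-35519280, plus strand), which encodes a centrosomal linker protein and starts next to GDF5 on the other strand, had a log2 fold change of 0.09 (SE 0.0704, edgeR adjusted p = 0.748). Neither neighbour passed the test.

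**Figure D1:**
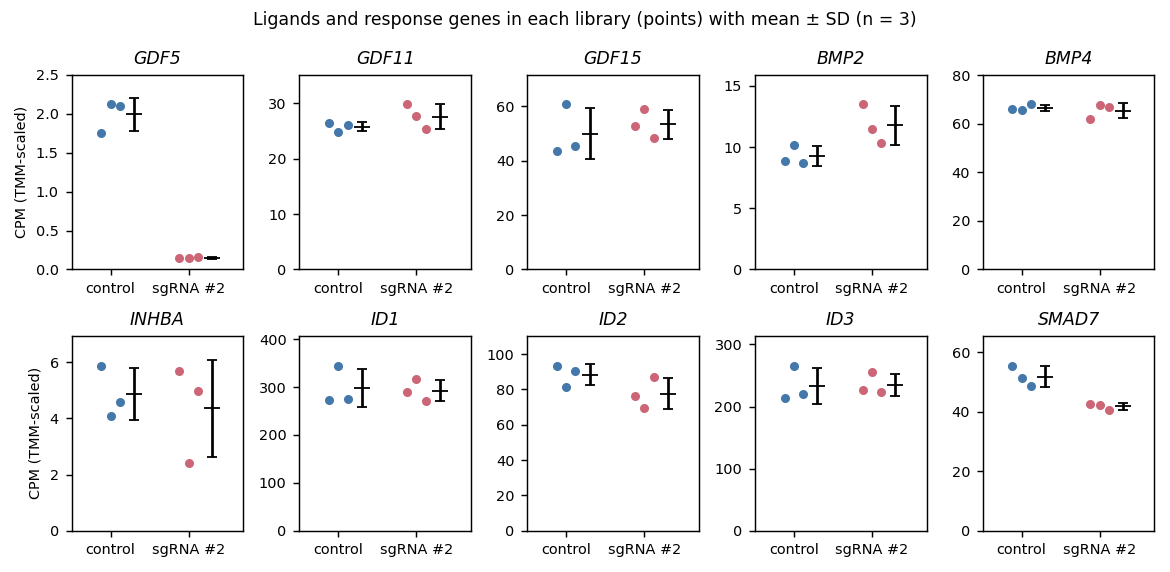
Level of each of the 10 genes in CPM (TMM-scaled, linear axis from 0, one scale per gene) in the 3 sgRNA control and the 3 sgRNA #2 libraries (points, replicates 1 to 3 from left to right), with the mean and SD (bar). GDF5 went from 1.99 to 0.153 CPM, SMAD7 from 51.9 to 41.9 CPM and BMP2 from 9.25 to 11.8 CPM without overlap between groups, and the points of the other 7 genes overlap.

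BMP2 and BMP4 are close relatives in the BMP branch, both bound by the receptors BMPR1A and BMPR2. BMP4 had 417, 465 and 519 counts in control libraries and 436, 451 and 403 with sgRNA #2. In CPM this was 66.3, 65.8 and 68.1 against 61.9, 67.6 and 67.0, so the groups overlapped. BMP4 had a log2 fold change of -0.03, with a 95% interval of -0.19 to 0.13.

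BMP2 was lower in level and went the other way. It was at 8.90, 10.2 and 8.66 CPM in control libraries and at 13.5, 11.5 and 10.3 CPM with sgRNA #2, on 56 to 72 and 62 to 95 counts. All 3 sgRNA #2 libraries lay above all control libraries, though only just, and it was the 1 gene of the 10 to do so. Its log2 fold change was 0.35 (SE 0.161, 95% interval 0.01 to 0.69), which did not pass the cut-off on adjusted p. Among all tested genes, 6.77% had groups that did not overlap in the higher direction, and 8.83% in the lower direction.

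GDF11 and INHBA encode ligands of the activin branch. GDF11, which is close to myostatin and patterns the axial skeleton, was at 26.4, 24.8 and 26.1 CPM in control libraries and at 29.8, 27.6 and 25.3 CPM with sgRNA #2. The groups overlapped, with a log2 fold change of 0.10 (SE 0.105, 95% interval -0.12 to 0.32). Part of GDF11 lies opposite SARNP, with the same doubt about strand as for GDF5, and the same holds for BMP4 (opposite ENSG00000287156), INHBA (INHBA-AS1) and ID2 (ID2-AS1).

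INHBA, whose product forms activin A, had the largest SE of the set after GDF5, at 0.280. It had 37, 29 and 35 counts in control libraries and 40, 16 and 30 with sgRNA #2, or 5.88, 4.10 and 4.59 CPM against 5.68, 2.40 and 4.99 CPM. The low value came from sgRNA #2 library 2. INHBA had a log2 fold change of -0.15, and 0.15 without that library. Its 95% interval ran from -0.74 to 0.44, so a difference in either direction within it is compatible with these values.

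GDF15, a distant family member that is induced by cell stress and acts on a receptor in the hindbrain, was at 43.7, 60.8 and 45.5 CPM in control libraries and at 52.8, 59.1 and 48.4 CPM with sgRNA #2. In both groups library 2 was the highest. The groups overlapped, and GDF15 had a log2 fold change of 0.09 (SE 0.115, 95% interval -0.15 to 0.34).

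The ID genes of the set are described in turn. ID1 had 1725, 2439 and 2106 counts in control libraries and 2032, 2110 and 1638 with sgRNA #2, which is 274, 345 and 276 CPM against 289, 316 and 272 CPM. Its log2 fold change was -0.03 (SE 0.0853, 95% interval -0.21 to 0.15). ID3 was at 213, 266 and 221 CPM in control libraries and at 227, 255 and 223 CPM with sgRNA #2, with a log2 fold change of 0.01 (SE 0.0820, 95% interval -0.16 to 0.18). Both genes overlapped between groups, and for both, library 2 was the highest of its group.

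ID2, whose product blocks E proteins as those of ID1 and ID3 do, was lower on average with sgRNA #2. It was at 93.5, 81.6 and 90.2 CPM in control libraries and at 76.4, 69.4 and 86.8 CPM with sgRNA #2, where the highest library overlapped the control range. The log2 fold change was -0.19 (SE 0.0854, 95% interval -0.37 to -0.01), and it did not pass the cut-off on adjusted p. Here library 2 was the lowest of each group, in contrast to ID1 and ID3.

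SMAD7 was the response gene with the largest difference. It had 350, 363 and 372 counts in control libraries and 301, 283 and 244 with sgRNA #2, or 55.6, 51.3 and 48.8 CPM against 42.7, 42.4 and 40.6 CPM. All 3 sgRNA #2 libraries lay below all 3 control libraries. The log2 fold change was -0.31 (SE 0.0864, 95% interval -0.49 to -0.12), which lay between -0.35 and -0.26 when any 1 library was left out, and it did not pass the cut-off on adjusted p.

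For these 2 genes the call differed between fits with and without the replicate number. Libraries with the same number deviated together from their group means. When the number was entered as a block, ID2 and SMAD7 passed an adjusted p of 0.05 beside GDF5, without the fold change cut-off. Their log2 fold changes stayed at -0.19 and -0.31. The p-values of the blocked fit rest on a trend of spread over all genes, not on each gene's own spread. How much of the new calls came from the pairing was not tested. In that fit 6.06% of all tested genes passed in the lower direction and 3.97% in the higher, against 2.22% lower and 0.464% higher without the block. The other 7 of the 10 genes were past the cut-off in neither fit.

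**Figure D2:**
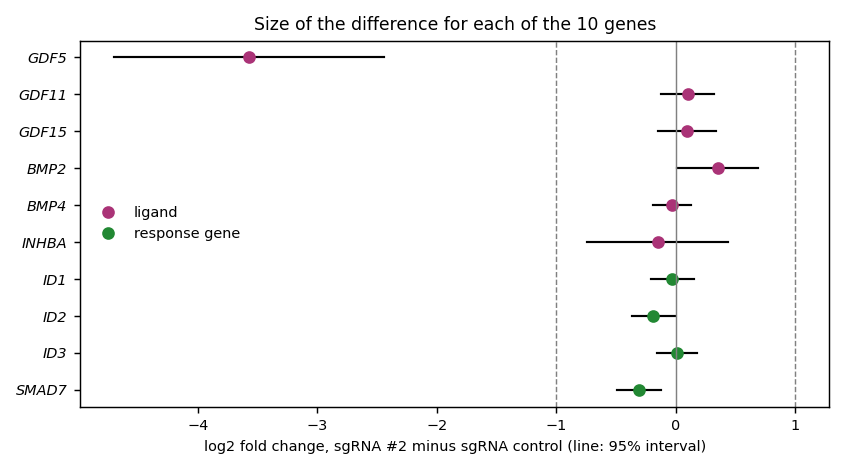
Log2 fold change of each of the 10 genes, sgRNA #2 minus sgRNA control (point), with its 95% interval (line), for ligands and response genes. Dashed lines mark the cut-off of 1 in either direction, and GDF5 at -3.57 is the 1 gene beyond it, while the other 9 lie between -0.31 and 0.35.

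Over the 10 genes the median log2 fold change was -0.029, and over the 9 other than GDF5 it was -0.028, beside 0.003 over all tested genes. None of the 9 had a 95% interval that reached a 2-fold change in either direction. The groups overlapped for 7 of the 10, while among all tested genes they lay apart for 8.83% (lower) and 6.77% (higher).

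In levels per length (CPM per kb of all annotated exons, control libraries), the 10 genes ranged from 242 ± 32.6 for ID1 to 0.587 ± 0.111 for INHBA. ID3 came next to ID1, at 156 ± 18.9, and ID2 at 40.0 ± 2.76. GDF15 followed at 24.0 ± 4.50 and BMP4 at 21.6 ± 0.398, and these neighbours overlapped in their libraries. SMAD7 was at 13.2 ± 0.873. The ligands GDF11, at 2.93 ± 0.0996, and BMP2, at 2.61 ± 0.231, overlapped as well. GDF5, at 0.756 ± 0.0796, lay near the bottom and overlapped INHBA, so it was a scarce transcript in these cells also without the targeting guide. With the length of the longest transcript in place of all exons, ID3 stood at 246 and ID1 at 242, BMP4 at 34.6 and GDF15 at 33.8, and INHBA at 0.804 and GDF5 at 0.774, so that the order within each of these pairs depends on the length used.

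**Figure D3:**
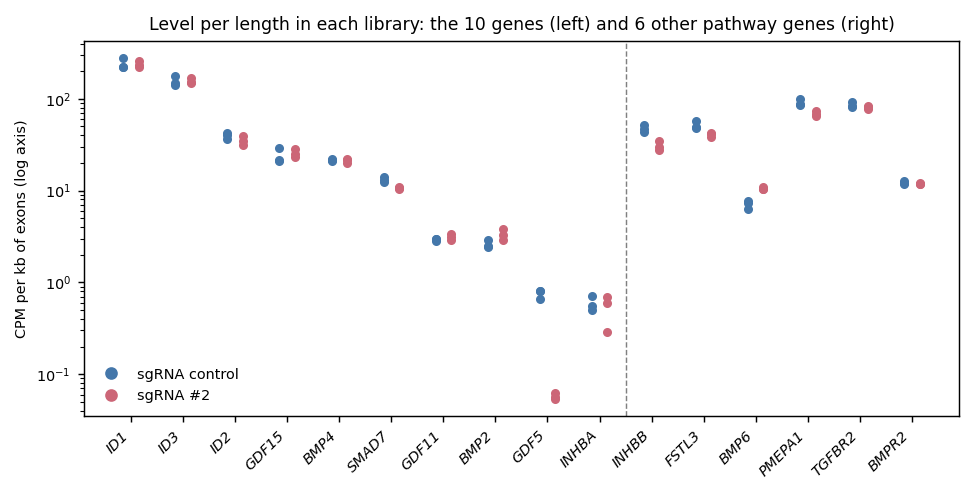
Level in CPM per kb of annotated exons (log axis) in each of the 3 sgRNA control and 3 sgRNA #2 libraries (points) for the 10 genes, in the order of their control level, and for 6 other genes of the pathway. The control means run from 242 for ID1 to 0.587 for INHBA, and INHBB, at 47.4, lies far above INHBA.

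Across the 6 libraries, Pearson's r of log2 CPM with GDF5 was 0.91 for SMAD7 and 0.65 for ID2, and lowest for BMP2 at -0.79. The values for the other 6 genes lay between -0.57 and 0.32. These are descriptions over 6 libraries that fall into the 2 groups compared, so a gene that differs between groups gets a high r of either sign. The 5 tested genes most like GDF5 by this measure were HHIPL2, ECHS1, SLC12A4, LGALS1 and BSG, with r of 0.998 to 0.999. All 5 were lower with sgRNA #2, by log2 fold changes from -4.29 for SLC12A4, a potassium-chloride cotransporter, to -1.01 for BSG, the glycoprotein basigin.

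To set the 10 genes among the rest of their pathway, 120 other ligands, receptors, SMADs, antagonists, proteases and response genes were examined. Of these, 13 had no count in any library and 83 had enough counts to be tested. None passed both cut-offs of edgeR, with 18 at an unadjusted p under 0.05 (1488 among all 13356 tested genes), and DESeq2 also put 0 past both. On adjusted p alone, 4 genes fell (INHBB, PMEPA1, LTBP2 and FSTL3) and 3 rose (BMP6, EGR1 and TRIB3), which is 4.82% and 3.61% of the 83 beside 2.22% and 0.464% of all tested genes. The median log2 fold change of the 83 was -0.031. With the replicate block 12 passed lower and 9 higher, or 14.5% and 10.8% of the 83, beside 6.06% and 3.97% of all tested genes in that fit.

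INHBB encodes the subunit of activin B and was by level the main activin subunit, at 47.4 ± 3.97 CPM per kb in control libraries beside 0.587 for INHBA. It had 877, 1072 and 1256 counts in control libraries and 620, 642 and 664 with sgRNA #2, which is 139, 152 and 165 CPM against 88.0, 96.2 and 110 CPM. The groups were clear of each other. INHBB fell by a log2 fold change of -0.63 (SE 0.0847, edgeR adjusted p = 1.51e-04), and passed when any 1 library was left out. INHA, the inhibin subunit, had 10 counts or fewer in every library and was not tested.

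FSTL3, a secreted protein that binds and blocks activins, had 952, 1232 and 1098 counts in control libraries and 882, 869 and 691 with sgRNA #2. It fell by a log2 fold change of -0.34 (SE 0.0783, edgeR adjusted p = 0.0209), and kept the call in 3 of 6 fits that left out 1 library, losing it without control library 2 (-0.26), sgRNA #2 library 1 (-0.35) or sgRNA #2 library 3 (-0.29). FST, the related activin antagonist follistatin, was chosen for mention after its values were seen. It had 69, 29 and 100 counts in control libraries and 141, 52 and 151 with sgRNA #2, so library 2 was low in both groups and the groups overlapped. Its log2 fold change was 0.89, which did not pass (edgeR adjusted p = 0.273). With the replicate block it passed, in a fit whose p-values rest on a trend of spread over all genes. As FST was picked on its values, that call is no support. Each sgRNA #2 library was higher in FST than the control library of the same number.

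**Figure D4:**
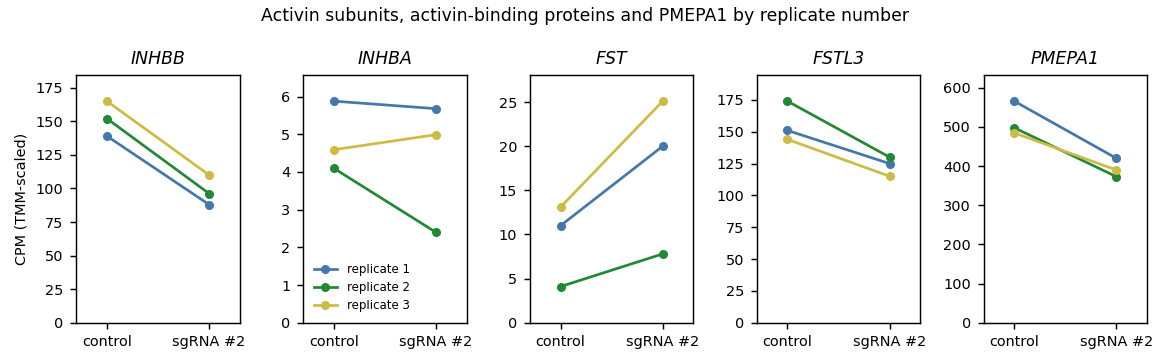
Level in CPM (TMM-scaled, linear axis from 0, one scale per gene) of the activin subunit genes INHBB and INHBA, the activin-binding proteins FST and FSTL3, and the response gene PMEPA1, with lines joining libraries of the same replicate number. INHBB goes from 139, 152 and 165 CPM to 88.0, 96.2 and 110 CPM, whereas FST is higher at the sgRNA #2 end of each line and INHBA does not move in a common direction.

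PMEPA1, a response gene of TGF-beta and activin that restrains SMAD2 and SMAD3, had 3561, 3521 and 3694 counts in control libraries and 2956, 2491 and 2348 with sgRNA #2. It fell by a log2 fold change of -0.39 (SE 0.0720, edgeR adjusted p = 0.00445), also when any 1 library was left out. LTBP2, a matrix protein of the latent TGF-beta binding family, fell by a log2 fold change of -0.53 (SE 0.105, edgeR adjusted p = 0.00735), a call lost without sgRNA #2 library 1 (-0.47). The other 8 tested response genes of this branch did not pass without the block, among them TGFBI, at 232 CPM per kb and a log2 fold change of 0.11. With the block 4 of the 10 passed, 3 lower and 1 higher, or 30.0% and 10.0% beside 6.06% and 3.97% of all tested genes.

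Of 20 other BMP and GDF ligands 7 had no count in any library and 4 were tested. BMP6, known as the signal for hepcidin in iron balance, had 150, 207 and 210 counts in control libraries and 275, 265 and 249 with sgRNA #2, or 23.8, 29.3 and 27.6 CPM against 39.0, 39.7 and 41.4 CPM. It rose by a log2 fold change of 0.57 (SE 0.101, edgeR adjusted p = 0.00283), with every library of one group above every library of the other. AMH, the anti-Müllerian hormone gene, was at 8.11 CPM per kb in control libraries, where it overlapped BMP6 at 7.11, and had a log2 fold change of 0.10.

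None of the 6 tested type I receptors and 4 tested type II receptors passed on adjusted p without the block, and with it TGFBR1 (edgeR adjusted p = 5.06e-04, lower) and ACVR2B (0.00882, higher) did. Per length TGFBR2 led them at 85.9 CPM per kb with a log2 fold change of -0.09, followed by TGFBR1 at 27.4 with -0.21, BMPR2 at 12.2 with -0.05 and ACVR1B at 11.8 with -0.12. The 6 tested SMAD genes other than SMAD7 lay between -0.16 and 0.12, and of these SMAD2, at -0.16, passed with the block alone (edgeR adjusted p = 0.0461). The most abundant were SMAD3 (40.9 CPM per kb, log2 fold change 0.12) and SMAD5 (17.4, 0.08). The intracellular regulators TGIF1 (17.0 CPM per kb) and SMURF1 (15), the latter a ubiquitin ligase that SMAD7 recruits to receptors, had log2 fold changes of -0.05 and 0.02, and none of the 10 in that list passed in either fit. BAMBI, a decoy receptor that is also a BMP target, was at 23.4 CPM per kb with a log2 fold change of -0.34 and passed only with the block (edgeR adjusted p = 2.30e-04), and the co-receptor RGMB (6.76 CPM per kb) was at -0.05.

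Other BMP response genes, ID4 among them, gave no call among 8 tested without the block and 1, BAMBI, with it. Their median log2 fold change was -0.036, with ID4 at -0.08 and the homeobox gene MSX2 (14.3 CPM per kb) at 0.02. E proteins, which the ID proteins bind, were all tested and all between -0.10 and 0.05, among them TCF3 (14.2 CPM per kb) and TCF12 (11.4). None of the 3 TGF-beta ligands passed either, with TGFB1 (29.7 CPM per kb) at -0.12 and TGFB2 (16.1) at -0.05. TWSG1, a secreted BMP modulator at 18.3 CPM per kb, was at -0.02, and the processing proteins FURIN (29.0) and LTBP3 (11.9) were at 0.05 and -0.06. Of the 10 tested convertases, BMP1 proteases and latent binding proteins, 1 (LTBP2) passed without the block. With the block 4 passed lower and 0 higher, or 40.0% lower beside 6.06% of all tested genes. These were LTBP2, PCSK5 (log2 fold change -0.66), PCSK6 (-0.23) and BMP1 (-0.22). LTBP2 also stands in the list of TGF-beta and activin response genes, so it counts in the shares of both lists. Without the block PCSK5 was close to the cut-off (edgeR adjusted p = 0.0538).

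GDF15 is induced through stress factors. A list of 7 genes, made of such factors and TRIB3, was tested in full, with a median log2 fold change of 0.285. EGR1, an immediate early zinc finger factor, had 19, 20 and 21 counts in control libraries and 39, 35 and 38 with sgRNA #2, and rose by a log2 fold change of 0.99 (SE 0.229, edgeR adjusted p = 0.0229). TRIB3, a pseudokinase induced by ATF4, rose from 158 ± 2.54 to 192 ± 19.2 CPM, a log2 fold change of 0.28 (SE 0.0735, edgeR adjusted p = 0.0463). Without the block both calls depended on single libraries. EGR1 kept its call only without control library 1 or sgRNA #2 library 2, and DESeq2's Wald test did not call it, while TRIB3 kept its call only without sgRNA #2 library 3. ATF4 itself (87.4 CPM per kb) was at 0.16 and CEBPB (53.8 CPM per kb) at -0.29, neither past the test without the block. With the replicate block 6 of the 7 passed, 5 higher and CEBPB lower. These are 71.4% and 14.3%, beside 3.97% and 6.06% of all tested genes in that fit. The edgeR adjusted p with the block was 0.00572 for ATF4, 2.93e-05 for CEBPB, 3.39e-07 for TRIB3 and 8.16e-04 for EGR1. DDIT3 was at 0.44 in that fit (edgeR adjusted p = 0.00222) and ATF3 at 0.36 (3.85e-04). GDF15, at 0.09, did not pass with or without the block.

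**Figure D5:**
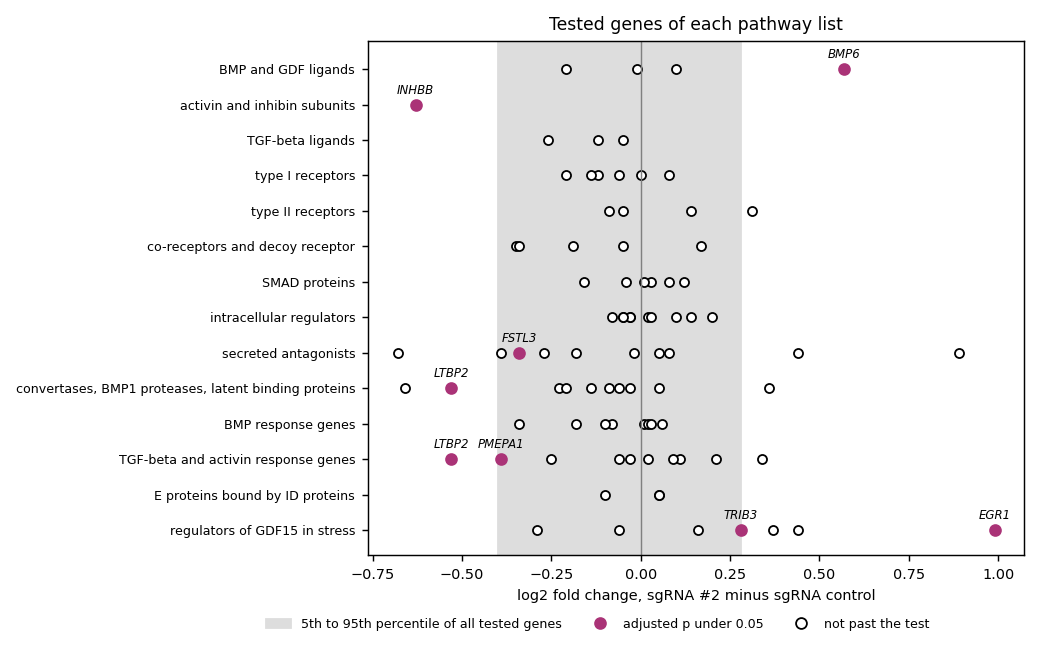
Log2 fold change (sgRNA #2 minus sgRNA control) of each tested gene of the pathway, 1 row per list, with the genes past an adjusted p of 0.05 (edgeR) filled and named, and a grey band for the 5th to 95th percentile of all tested genes (-0.40 to 0.28). Of the named genes, INHBB at -0.63, LTBP2 at -0.53, BMP6 at 0.57 and EGR1 at 0.99 lie outside the band. Some genes that are not filled do so too, such as SOST at -0.68 and FST at 0.89. Most receptors, SMADs and BMP response genes lie within it.

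The epithelial marker CDH1 had a log2 fold change of -0.34 (edgeR adjusted p = 0.00728), so it fell beside INHBB and FSTL3, while the summed epithelial level of the groups overlapped. Its part in the results on the pathway was not tested.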

How the data were processed

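RNA of 6 A549 libraries, 3 per group, was analysed from the deposited counts, which the authors made per gene symbol with htseq-count and did not normalize. The submitters' processing notes name Trim Galore, FastQC, Bowtie2 2.3.3.1, SAMtools, Picard, HTSeq and the build hg38. The annotation, the strand setting and how Bowtie2, which does not split reads at introns, was run are not given in the sources used here. Reads outside genes made up 19.7 to 21.1% and ambiguous reads 2.61 to 2.75%, and both were left out.

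The sample labels gave each library's group and number. The 10 genes, the pathway lists and the named genes (list genes past the test, the 2 most abundant per list, the neighbours of GDF5 and the 5 genes most like it) were chosen with earlier results of these data known. A gene that this rule would name is not reported here. Genes that reached 10 counts in 3 or more libraries were tested in R 4.3.3 with the quasi-likelihood test of edgeR 4.0.16, TMM scaling and Benjamini-Hochberg adjustment, and checked on simulated data. SE is the fold change divided by the root of F. DESeq2 1.42.0, other scalings and filters, the replicate block and leaving out each library were alternatives. The numbers were taken to pair the libraries, since the correlations of the deviations of same-numbered libraries were 0.269, 0.287 and 0.291. Those between different numbers were at most -0.1. Deviations from a group mean cancel out within the group, so positive values for same numbers make the others negative on average. In the blocked fit the prior degrees of freedom were infinite, so its p-values rest on the dispersion trend.

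Gene symbols were matched to GENCODE 44 for 23161 of 26485 and through older symbols in RefSeq for 1361 more. Promoters came from RefSeq (9 of the 10 genes matched).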

Additional observations from a re-analysis of the deposited data

How the results depend on the processing

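Of the 10 genes, 1 passed both cut-offs (GDF5), against 0 with DESeq2's test of a 2-fold change, 0 when 10 counts were required in every library, where GDF5 could not be tested, and 3 with the replicate block and no fold change cut-off (GDF5, ID2 and SMAD7). Leaving out 1 library turned the sign of 4 genes near 0, with log2 fold changes of -0.05 to 0.02 for BMP4, -0.40 to 0.15 for INHBA, -0.09 to 0.09 for ID1 and -0.05 to 0.11 for ID3. The signs of the other 6 genes held in the alternatives run. Of the pathway genes 0 passed both cut-offs, and 0 to 2 when 1 library was left out (EGR1 at 1.02 without control library 1, EGR1 at 1.04 and FST at 1.25 without sgRNA #2 library 2). Without a fold change cut-off 7 passed, and 21 with the block as well. Of all genes 96 passed both, against 122 with the block, 21 with DESeq2's 2-fold test, 27 with edgeR's test of a 2-fold change, 63 with 10 counts in every library, 359 without a fold change cut-off and 1339 with the block as well. The block changed no other call among the 10 genes. Another scaling (DESeq2's or total counts) moved the median gene by 0.0035 or 0.003 on the log2 scale. The causes of these differences were not tested. Depth limits GDF5 and INHBA most, at 1 to 16 and 16 to 40 counts per library.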
